A study of Homo sapiens with 6 samples.

Results

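Epithelial and mesenchymal identity genes are described here by H3AcK9, histone 3 acetylated at lysine 9, in SKOV3WT cells. The genes were chosen by name and not by their values: 10 genes, of which 4 are epithelial (CDH1, CLDN4, ESRP1 and GRHL2) and 6 are mesenchymal (CDH2, VIM, ZEB1, ZEB2, SNAI2 and TWIST1). Each was taken with 10 kb on either side, on the human genome build hg19. In the untreated list 227 of 376666 peaks lay at these genes. After vorinostat it was 534 of 912311 peaks in the first list and 480 of 913199 in the second, and after romidepsin 521 of 896878 and 515 of 884242.

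Cells of SKOV3, a line established from a human ovarian carcinoma, were either not treated or exposed for 24 h to 1 times the IC50 of a histone deacetylase inhibitor (HDACi), either vorinostat or romidepsin. Chromatin carrying H3AcK9 was immunoprecipitated and sequenced from 1 sample per condition, and all conditions share the wild-type line with no other alteration. The 3 input samples, taken without antibody, have no peak list and enter no value. Per the labels, each treated sample was divided by the sequencing company, which gave 2 lists per drug and 1 for untreated cells. A treated value is therefore the mean of both lists, and the distance between these lists was read as technical spread within 1 sample. Other passages of the study describe them as independent experiments or biological replicates, and which holds was not settled here. With 1 sample per condition there is no replicate check and no test of any difference between conditions, and the lists do not give the reads behind them.

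Carcinoma cells can move between an epithelial state, in which cadherin junctions and tight junctions bind neighbours together, and a mesenchymal state, in which cells are loose and motile. ZEB1, ZEB2, SNAI2 and TWIST1 are transcription factors that drive this transition, the first 3 by binding E-box sequences in promoters such as that of CDH1 and repressing them. GRHL2 and ESRP1 hold the epithelial state, GRHL2 as a transcription factor that opposes ZEB1 and ESRP1 as a splicing regulator. H3AcK9 marks active promoters and enhancers, and an HDACi blocks the enzymes that remove it.

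The promoters of 4 genes at which the start site carried peaks are shown because the results below turn on them. ZEB2 gained covered bases at its start, ZEB1 and VIM had their start windows covered throughout in untreated cells, and CLDN4 is the epithelial gene with the most covered start. Each sequence runs 5′ to 3′ along the gene from 250 bases before a start to 50 after it. They are RefSeq sequences of build GRCh38.p14 (hg38), not the build of the peaks, so no peak was placed on them. Capitals mark the E-box CACCTG on either strand, read as CAGGTG on the other one. The positions are chr2:144520070-144520369 on the minus strand for ZEB2, chr10:31318966-31319265 for ZEB1, chr10:17227991-17228290 for VIM and chr7:73830746-73831045 for CLDN4, the last 3 on the plus strand.
ZEB2: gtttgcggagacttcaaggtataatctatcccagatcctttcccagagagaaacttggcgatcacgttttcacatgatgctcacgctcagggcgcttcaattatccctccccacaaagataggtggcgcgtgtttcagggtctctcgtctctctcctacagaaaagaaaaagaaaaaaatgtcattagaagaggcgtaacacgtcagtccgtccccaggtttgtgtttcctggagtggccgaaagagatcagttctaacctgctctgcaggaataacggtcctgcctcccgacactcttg
ZEB1: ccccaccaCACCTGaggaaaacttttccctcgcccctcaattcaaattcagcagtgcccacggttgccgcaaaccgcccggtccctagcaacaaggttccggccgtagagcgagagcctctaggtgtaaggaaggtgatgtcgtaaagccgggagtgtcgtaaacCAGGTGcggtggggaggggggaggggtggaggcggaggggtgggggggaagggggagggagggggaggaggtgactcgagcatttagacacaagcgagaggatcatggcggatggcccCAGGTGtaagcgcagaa
VIM: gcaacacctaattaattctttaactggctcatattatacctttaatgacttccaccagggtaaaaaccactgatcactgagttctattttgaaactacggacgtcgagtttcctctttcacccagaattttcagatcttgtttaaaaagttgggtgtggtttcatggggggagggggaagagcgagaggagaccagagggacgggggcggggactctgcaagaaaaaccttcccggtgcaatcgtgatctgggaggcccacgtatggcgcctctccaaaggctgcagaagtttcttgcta
CLDN4: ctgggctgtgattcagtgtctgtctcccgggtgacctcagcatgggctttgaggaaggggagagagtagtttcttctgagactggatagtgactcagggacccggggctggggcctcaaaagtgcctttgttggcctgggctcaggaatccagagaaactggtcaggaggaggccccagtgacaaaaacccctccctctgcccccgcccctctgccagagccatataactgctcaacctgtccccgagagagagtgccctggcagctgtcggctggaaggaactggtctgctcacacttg
RefSeq lists 7 starts for ZEB1, and the one shown is the one with the most E-boxes. Its 3 E-boxes begin 242 and 85 bases before the start and 33 bases after it. Of the other ZEB1 windows the first holds 1 E-box and the rest hold none. No E-box of these letters stands in the printed windows of ZEB2, VIM and CLDN4, nor in the 2 windows of CDH2. Of all 35116 RefSeq promoters of this length, 20.6% hold at least 1 such E-box and 3.49% hold 2 or more. These shares are per promoter, whereas the ZEB1 window was picked for its count, so they do not rank it. The ZEB1 window had a GC content of 61.7% and 17 CpG dinucleotides, against a median of 58.7% and 14.0 over all promoters. ZEB2 had 49.0% and 14, VIM 48.0% and 10, and CLDN4 59.0% and 5. Of the 7 genes searched 5 were matched by symbol. CDH1 and TWIST1 were not.

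The untreated list stood apart from the treated ones before any gene was considered. Its median peak was 537 bp wide, against 203 to 219 bp in the treated lists, and it held fewer peaks that covered more bases in all, 344 Mb against 296 to 325 Mb. Peak numbers were higher in every treated list at each of the 10 regions, and the bases covered by peaks (covered bases) are the measure used here. The part that this difference in peak width plays in any treated value was not tested. Over the whole genome, covered bases after vorinostat were 0.879 times and after romidepsin 0.920 times the untreated ones. Each total took all chromosomes of its list, and only 20 chromosomes have peaks in all 5 lists. Whether the totals cover the same chromosomes was not examined. Transcripts and proteins were not measured in these samples, so the epithelial or mesenchymal character of the cells was not examined beyond this mark.

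In untreated cells both gene groups carried H3AcK9 peaks, and at the start windows these covered a larger share in the mesenchymal group. Over the genes with 10 kb on either side the order was reversed. There the epithelial genes held 108307 covered bases and the mesenchymal genes, although more numerous, 90752. Covered bases give the breadth of peaks and not the amount of the mark. The start window, 5 kb centred on the kilobase that holds the gene's 5′ end, was covered to 100% at VIM, which encodes the intermediate filament vimentin, and to 100% at ZEB1. TWIST1 was covered to 78.6% and CDH2, which encodes N-cadherin, to 69.8%. Of the mesenchymal genes only SNAI2 (also named Slug) at 44.3% and ZEB2 at 16.4% lay under 50%. Among the epithelial genes CLDN4, a tight junction claudin, was covered to 83.0%. CDH1, which encodes E-cadherin, was covered to 47.9%, ESRP1 to 21.8% and GRHL2 to 20.1%. These 5 of 10 start windows at 50% or more stand beside 7.35% of all 5 kb tiles of the genome, which are not chosen for starts.

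**Figure D1:**
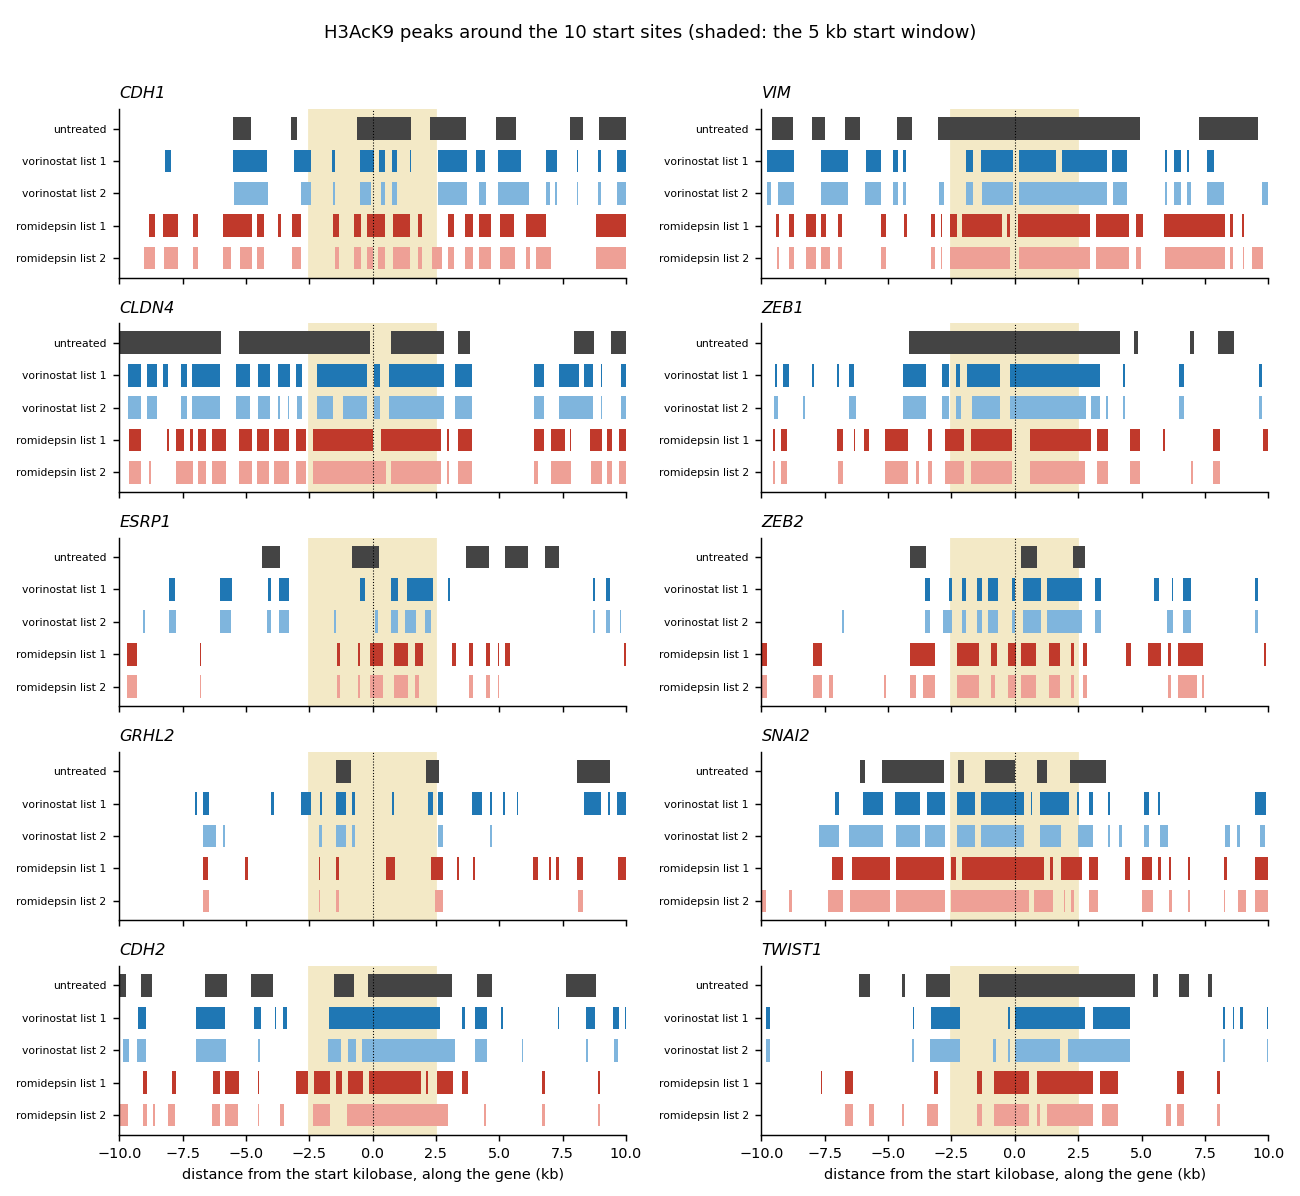
H3AcK9 peaks (bars) within 10 kb of the start kilobase of each gene, 1 row per list, with the distance along the gene in kb on the horizontal axis and the 5 kb start window shaded. Wide untreated bars span the starts of VIM, ZEB1, TWIST1 and CDH2, and a wide bar at CLDN4 ends just before the middle of the start kilobase. At ZEB2 the window goes from 2 untreated peaks to between 6 and 7 treated ones.

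At 4 genes the widest untreated peak of the region spanned the middle of the start kilobase. The ZEB1 peak of 8331 bp reached from 4186 bp before to 4145 bp after the middle of the start kilobase and was the widest untreated peak at any of the 10 genes. The VIM peak measured 7962 bp, the TWIST1 peak 6156 bp and the CDH2 peak 3322 bp. The widest untreated peaks of the other 6 genes lay away from the start. That of CDH1, 6336 bp wide, began 50535 bp into the gene, and that of CLDN4, 5937 bp wide, ended 5967 bp before the start. CLDN4 had a further untreated peak of 5181 bp, wider than that of CDH2. It reached into the start kilobase and ended 111 bp before its middle, so wide peaks at the start were not confined to mesenchymal genes.

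ZEB2 stood out among the starts after both drugs. Its window held 821 covered bases in untreated cells, 2836 and 2833 with vorinostat, and 2553 and 2450 with romidepsin. All 4 treated lists were thus above the untreated one, by 3.45-fold with vorinostat and 3.05-fold with romidepsin, and the lists of each drug were close together. The untreated value was the smallest of the 10 start windows, so these folds rest on a small number. The 2 untreated peaks lay downstream of the start, from 260 to 886 bp and from 2305 to 2750 bp. The treated lists held 7 peaks each with vorinostat and 6 each with romidepsin. A peak over the middle of the start kilobase, absent from the untreated list, ran from 120 bp before to 16 bp after it in both vorinostat lists and from 258 bp before to 50 bp after it in both romidepsin lists. In all 4 treated lists 1046 bases were covered that were not covered in untreated cells, which is 127% of the untreated covered bases of this window. ZEB2 codes on the minus strand, and opposite-strand transcripts begin nearby in the hg38 annotation. Distances are from the outermost annotated start, which lies upstream of the RefSeq window printed above, so distances from the RefSeq start differ. Unnamed transcripts begin 18, 601 and 2610 bp after the outermost start and ZEB2-AS1 3079 bp after it, whereas LINC01412 begins 811 bp before it. Their peaks and those of ZEB2 cannot be told apart. The fold was above 1 in 10 of 10 alternatives with romidepsin and in 9 of 10 with vorinostat. The exception, at 0.316, left out every peak scored below 1, and a 2 kb window gave 1.84 and 1.75.

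SNAI2 was the other gene at which the start was at least 1.5-fold more covered after both drugs. Its window held 2213 covered bases untreated, 3692 and 3242 with vorinostat, and 4258 and 3991 with romidepsin. These are mean folds of 1.57 and 1.86, with all 4 treated lists above the untreated one. The second vorinostat list alone gave 1.46, under the threshold. The untreated list and both romidepsin lists had 4 peaks each in the window, of which the widest was 1439 bp untreated. The widest in the first romidepsin list, of 3263 bp, ran from 2102 bp before to 1161 bp after the middle of the start kilobase, and that of the second list measured 3052 bp. Bases gained in all 4 treated lists came to 1053, or 47.6% of the untreated ones. The fold was 1.00 for both drugs when gaps of up to 1000 bp between peaks were closed, and in a 10 kb window it was 1.02 with vorinostat and 1.21 with romidepsin. In a 2 kb window vorinostat gave 1.23, and for bases covered in both of its lists 1.46.

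The other mesenchymal starts were covered before treatment and remained mostly so. At ZEB1 the 5000 untreated bases stood against 4188 and 4013 with vorinostat and 4028 and 4025 with romidepsin, folds of 0.820 and 0.805. All 4 treated lists were lower, and 65.7% of the untreated bases were covered in every one of them. At VIM the 5000 untreated bases stood against 3636 and 3853 with vorinostat and 4263 and 4650 with romidepsin, folds of 0.749 and 0.891. A fully covered window can only stay equal or become lower, so neither gene could have shown an increase. TWIST1 had 3930 untreated covered bases, 2863 and 2672 with vorinostat and 3210 and 2958 with romidepsin, folds of 0.704 and 0.785. CDH2 went the other way, from 3492 to 4238 and 3797 with vorinostat and 3614 and 4204 with romidepsin. It was higher in all 4 treated lists, by 1.15-fold and 1.12-fold, with the lists of each drug further apart than the drugs' means. A 10 kb window gave 0.941 and 0.893 instead, the score filter 0.468 and 0.190, and bases in both romidepsin lists 0.964.

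The epithelial starts showed no common direction. CDH1 held 2395 covered bases untreated, 1240 and 960 with vorinostat, and 2048 and 1868 with romidepsin. Vorinostat thus gave a fold of 0.459, the only start window at least 1.5-fold lower with this drug, and romidepsin gave 0.818. The untreated peak over the start, 2143 bp wide, was replaced in the first vorinostat list by peaks of 51 to 557 bp. The vorinostat fold was 0.949 in a 10 kb window and turned to 1.19 when gaps of up to 1000 bp were closed.

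GRHL2 had 1003 covered bases in the start window untreated, 955 and 651 with vorinostat, and 733 and 192 with romidepsin. The folds of 0.801 and 0.461 rest on small numbers. The vorinostat fold was 1.17 in a 2 kb window, 1.32 in a 10 kb window and 1.81 with gaps of up to 1000 bp closed, and the second romidepsin list decides the romidepsin one. The first romidepsin list alone gave 0.731, which is not past 1.5-fold, and the second 0.191. In a 2 kb window the romidepsin fold was 1.13 and in a 10 kb window 0.773. With gaps of up to 1000 bp closed it was 1.08, and for bases in either list 0.738. ESRP1 had 1088 covered bases untreated, 1468 and 1174 with vorinostat and 1582 and 1425 with romidepsin, folds of 1.21 and 1.38. The direction depends on the window: a 2 kb window gave 0.395 and 0.682 and a 10 kb window 0.697 and 0.723. For bases in both lists vorinostat gave 0.811. No untreated base of the 5 kb window was covered in all 4 treated lists, 41.4% were covered in none, and each romidepsin list covered 41.0%. CLDN4 had 4150 covered bases untreated, 4085 and 3686 with vorinostat and 4494 and 4631 with romidepsin. It was lower in both vorinostat lists and higher in both romidepsin lists, at 0.936 and 1.10. In a 2 kb window it was higher with both drugs, at 1.20 and 1.5, and in a 10 kb window lower with both, at 0.809 and 0.953.

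Summed over the 10 start windows, 29092 bases were covered untreated, 29201 and 26881 with vorinostat, and 30783 and 30394 with romidepsin. The folds were 0.964 and 1.05, and for vorinostat the lists lay on either side of the untreated value. The 6 mesenchymal starts gave 1.02 and 1.08 and the 4 epithelial starts 0.823 and 0.983. The medians over the 10 genes were 0.878 and 0.996.

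The background for these values came from tiles of the same 5 kb size. Among tiles covered to 50% or more in untreated cells, 43.5% were at least 1.5-fold lower with vorinostat and 34.6% with romidepsin, and 0.120% and 0.371% were at least 1.5-fold higher. None of the 5 genes with such a start (CLDN4, CDH2, VIM, ZEB1 and TWIST1) passed 1.5-fold in either direction with either drug. The tile medians were 0.710 and 0.765, and VIM, ZEB1, CLDN4 and CDH2 lay above them with both drugs. TWIST1 lay just under the vorinostat median and above the romidepsin one. Of these 5 starts 3 (VIM, ZEB1 and TWIST1) were lower in all 4 treated lists, as were 73.4% of the tiles. CDH2 was higher in all 4, as were 4.15% of the tiles.

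Tiles with untreated peaks that were covered to less than 50% varied more. There 20.9% were at least 1.5-fold higher with vorinostat and 24.7% with romidepsin, and 48.4% and 45.1% were at least 1.5-fold lower. Of the 5 genes with such a start, ZEB2 and SNAI2 were past 1.5-fold higher with both drugs, CDH1 was past 1.5-fold lower with vorinostat and GRHL2 with romidepsin. The ZEB2 folds lay above the 90th percentile of the tiles, which was 2.44 with vorinostat and 2.76 with romidepsin, and those of SNAI2 lay above the 75th, at 1.32 and 1.49. ESRP1, ZEB2 and SNAI2 were higher in all 4 treated lists, against 19.4% of the tiles, and CDH1 and GRHL2 were lower in all 4, against 42.8%. Passing 1.5-fold was thus common over this pooled range, and counts over 5 genes say little beside it. The range runs from 1 covered base to just under 50%, and SNAI2 at 44.3% and CDH1 at 47.9% lie near its upper end. Tiles of closely matched untreated coverage were not examined, so these shares and percentiles may not hold at the coverage of a single gene.

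Over the whole regions, 1138 kb in all, covered bases were lower. The 10 regions held 199059 covered bases untreated, or 17.5% of their length. With vorinostat they held 173211 and 155998, and with romidepsin 177076 and 169981. The folds of 0.827 and 0.872 were a little below the genome-wide ones. Away from the start windows they were 0.803 and 0.841. The epithelial regions gave 0.823 and 0.849 and the mesenchymal ones 0.832 and 0.899, so the groups differed by less than the genes within them.

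The order of the genes by share of the region covered was largely the same in the lists. CLDN4 was first in every list, at 65.9% untreated and 51.4% to 56.0% treated, and ZEB2 was last in every list, at 5.48% untreated and 7.11% to 7.59% treated. The regions also differ in length, 22.0 kb for CLDN4 and 157 kb for ZEB2, and the part of length in this order was not tested. SNAI2 moved most in the order, from place 5 untreated to place 3 in the first vorinostat list and place 2 in the other 3 treated lists.

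Only the SNAI2 region was at least 1.5-fold more covered, with both drugs. On hg19 it is chr8:49820001-49844000, and it held 5934 covered bases untreated, 7891 and 10004 with vorinostat, and 10860 and 11560 with romidepsin. The folds were 1.51 and 1.89. The first vorinostat list alone gave 1.33, a width of at least 200 bp gave 1.41 with this drug and bases in both lists 1.15. Without the flanks the folds were 1.02 and 1.18, so most of the added bases lay outside the transcribed part. With only peaks scored at least 1 the folds turned to 0.174 and 0.554. The ZEB2 region (chr2:145131001-145288000) was higher in all 4 treated lists as well, from 8609 to 11594 and 11168 with vorinostat and 11910 and 11294 with romidepsin. With vorinostat the direction turned under 3 alternatives, to 0.645 with only peaks scored at least 1, 0.919 with only peaks at least 200 bp wide and 0.908 for bases in both lists. The folds of 1.32 and 1.35 were reached although 62.4% of its untreated covered bases were covered in no treated list. Its widest untreated peak, 1068 bp wide and 32165 bp into the gene, was covered to 13.7% in each vorinostat list and not at all in the romidepsin lists. Apart from the start window the ZEB2 folds were 1.10 and 1.17.

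The ESRP1 and ZEB1 regions were at least 1.5-fold less covered with both drugs. ESRP1 (chr8:95643001-95730000) held 17544 covered bases untreated, 11995 and 9476 with vorinostat and 10038 and 7956 with romidepsin, folds of 0.612 and 0.513. The first vorinostat list alone, at 0.684, did not pass 1.5-fold. ZEB1 (chr10:31598001-31829000) held 32251 untreated, 17561 and 17961 with vorinostat and 19586 and 19767 with romidepsin, folds of 0.551 and 0.610 with close lists. At both genes the folds of the 5 kb start window were above those of the remainder, which were 0.572 and 0.455 for ESRP1 and 0.501 and 0.574 for ZEB1. For ESRP1 this depends on the window, since a 2 kb start window gave 0.395 with vorinostat. Both regions stayed below 1 in 10 of 10 alternatives with each drug. Closing gaps of up to 1000 bp ended the calls, at 0.825 and 0.818 for ESRP1 and 0.740 and 0.915 for ZEB1. So did counting bases in either list for ESRP1 with vorinostat, at 0.818, and for ZEB1 with romidepsin, at 0.713, where gaps of up to 300 bp also gave 0.677.

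The other 6 regions did not pass 1.5-fold with the main settings. CDH1 (chr16:68761001-68879000) held 44924 covered bases untreated, 37469 and 35733 with vorinostat and 41348 and 41472 with romidepsin. CLDN4 (chr7:73235001-73257000) held 14499, then 12040 and 11305 with vorinostat and 12006 and 12315 with romidepsin. VIM (chr10:17260001-17290000) held 13727, then 10369 and 11164 with vorinostat and 12099 and 12428 with romidepsin. All 3 were lower in all 4 treated lists, with folds between 0.784 for VIM with vorinostat and 0.922 for CDH1 with romidepsin. CLDN4 without its flanks went the other way, at 1.20 and 1.5, and with only peaks scored at least 1 it was at 2.53 with vorinostat and 0.197 with romidepsin. With gaps of up to 1000 bp closed all 3 were above 1 with both drugs, from 1.02 for CLDN4 to 1.43 for CDH1, both with romidepsin. TWIST1 (chr7:19145001-19168000) was lower in all 4 too, from 8361 to 6275 and 6304 with vorinostat and 5496 and 5842 with romidepsin. Its folds were 0.752 and 0.678, and no base was gained in all 4 treated lists. The romidepsin fold passed 1.5-fold lower under some alternatives. It was 0.657 with the first list alone, 0.645 with the width filter, 0.0342 with the score filter and 0.611 for bases in both lists. GRHL2 (chr8:102494001-102692000) had no direction beyond the spread of its lists, with 31340 untreated, 36119 and 24129 with vorinostat and 31134 and 27556 with romidepsin. CDH2 (chr18:25520001-25768000) was alike, with 21870 untreated, 18754 to 21898 with vorinostat and 19791 to 22599 with romidepsin.

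Among 100 kb tiles with untreated peaks, 22.1% were at least 1.5-fold higher with vorinostat and 15.5% with romidepsin, and 19.2% and 24.6% were at least 1.5-fold lower. The counts of 1 gene higher and 2 lower of 10 with either drug are near these shares and say nothing particular of the genes. In all 4 treated lists 24.1% of the tiles were higher and 38.5% lower, beside 2 and 6 of the 10 regions. The regions ranged from 22.0 to 248 kb, so tiles match them in size only roughly.

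Summed over the genes, start windows kept more of their untreated covered bases than the whole regions did. Of the untreated covered bases of the 10 start windows 56.9% were covered in all 4 treated lists and 6.60% in none. Over the whole regions it was 20.5% and 39.0%. The starts also had a larger share covered in untreated cells than the regions. Kept and lost shares were not computed for the tiles, so nothing particular to these genes can be read from them. CLDN4 kept most at its start, 80.1%, and CDH2 68.5% with none lost in every list. At SNAI2 and ZEB2 the start kept 66.2% and 66.6%. Some genes departed from the sum. CDH1 kept 21.3% at the start and 24.1% over the region, GRHL2 11.2% and 10.8%, and ESRP1 0% and 3.01%. In the regions, the share covered in no treated list was highest at ZEB2, ESRP1 and ZEB1, at 62.4%, 61.3% and 58.5%, and lowest at SNAI2, at 8.88%.

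The lists of 1 sample agreed better at the starts as well. Of the bases covered in either vorinostat list, 87.2% were in both at the starts and 61.6% over the regions, and for romidepsin it was 85.6% and 69.0%. These shares were not computed for the tiles. The start of ZEB1 was shared to 94.7% and 99.9%, and that of ZEB2 to 99.0% and 95.4%. GRHL2 had the lowest share at the start with romidepsin, where 185 of 740 bases were in both lists. There the lists of one sample differed from each other by as much as their mean differed from the untreated value.

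Vorinostat, a hydroxamic acid, and romidepsin, a cyclic depsipeptide, were given at the same multiple of their IC50 and for the same time. Covered bases of the drugs are compared directly here. The untreated list enters only in the grouping by coverage and in the counts of bases gained or kept. For the 10 starts compared between the drugs, both romidepsin lists lay above both vorinostat lists at 5 genes (CDH1, CLDN4, VIM, SNAI2 and TWIST1) and below them at 1 (ZEB2). At CDH1 the difference was largest, with 2048 and 1868 covered bases against 1240 and 960. At ESRP1, GRHL2, CDH2 and ZEB1 the lists of the drugs overlapped or were not separated. Among tiles covered to 50% or more, 41.9% had both romidepsin lists above and 24.1% below, beside 3 and 0 of the 5 genes of that coverage. Among the less covered tiles it was 36.4% and 26.3%, beside 2 and 1 of 5. With 1 sample per drug these differences have no test. Of the start bases covered in both vorinostat lists but not untreated, 42.5% were in both romidepsin lists, and over the regions 27.5%. Kept untreated bases included, the shares were higher. All start bases covered in both vorinostat lists were in both romidepsin lists to 73.2%, and over the regions to 45.5%. At ESRP1 it was 26.9% and 16.4%. Such shares between the drugs were not computed for the tiles, so they have no background here.

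Other transcripts lie within 10 kb of each of the 10 genes in the hg38 annotation. Peaks in the flanks or over antisense transcripts cannot be told apart from peaks of the gene itself. CDH3, which encodes another cadherin, ends 9824 bp from CDH1, and TANGO6 begins 7994 bp beyond it. METTL27 lies 1900 bp from CLDN4 on the opposite strand. VIM-AS1 and ZEB1-AS1 overlap VIM and ZEB1 on the opposite strand and begin 1777 and 1952 bp from their starts, within the wide untreated peaks. At SNAI2 unnamed transcripts of the opposite strand begin 237 bp after and 4177 bp before the outermost annotated start. At GRHL2 such transcripts begin 60 bp after and 137 bp before it.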

How the data were processed

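H3AcK9 ChIP-seq of SKOV3WT cells was analysed from the deposited peak lists. According to the sources of the study, reads were aligned and peaks called with MACS 1.4.2 separately for each list. Each line holds a chromosome, a start, an end, a name and a score deposited by the authors, whose scale is not given in the sources used here. Build hg38 is named in the submitters' processing notes, but all 5 lists hold peaks past the end of chromosome 1 of hg38 (34 to 93 peaks), so positions were read as hg19, and none were converted. Spike-in chromatin of Drosophila was added before immunoprecipitation, and whether it entered the lists is not given in the sources used here.

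Overlapping peaks were merged within a list, and covered bases were counted in each gene with 10 kb flanks and in a 5 kb start window. Positions of the genes were rounded to whole kb, so a start is known to the kilobase only. Strand and neighbouring transcripts came from GENCODE on hg38. A peak was counted where it shared at least 1 bp. A fold is the mean of both treated lists over the untreated value, and 1.5-fold was the threshold. Background tiles lay on the 20 chromosomes with peaks in all lists. All 10 genes are named, by a fixed list. The genes, lists and rules were chosen with earlier results of these data known. Other genes of the pathway were not analysed here, since no annotation of hg19 was at hand. Python 3.11.15, NumPy 2.4.6, pandas 2.3.3 and Matplotlib 3.10.9 were used. The counting was tested on simulated data and checked against bedtools 2.31.1, with 50 of 50 values equal. Alternatives were each list alone, filters on score and width, closing of gaps, other flanks and other start windows. Bases in both or in either list of a sample were added after seeing the data. Reads per list are unknown.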

Additional observations from a re-analysis of the deposited data

How the results depend on the processing

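With 1 sample per condition no value has a test, and the limits are those of peak lists: the depth behind a peak is unknown, the untreated peaks are wider, and a fold follows how peaks are drawn. The summed fold over the regions was 0.827 with vorinostat and 0.872 with romidepsin. It was 0.370 and 0.434 with only peaks scored at least 1, 0.698 and 0.746 with only peaks at least 200 bp wide, 0.926 and 0.982 with peaks merged across gaps of up to 300 bp, and 1.20 and 1.26 with gaps of up to 1000 bp. Without flanks the romidepsin fold was 0.820. Counting bases in both lists, chosen after seeing the data, gave 0.630 and 0.712, and bases in either list gave 1.02 and 1.03. Summed over the starts, the fold was 0.964 with vorinostat and 1.05 with romidepsin. It was 0.204 and 0.251 with the score filter, 1.08 and 1.14 with gaps of up to 300 bp, 1.18 and 1.24 with gaps of up to 1000 bp, 0.893 and 0.976 in a 2 kb window, 0.865 and 0.899 in a 10 kb window, 0.898 and 0.970 for bases in both lists, and 1.03 and 1.13 for bases in either. The width filter gave 1.01 with romidepsin. By construction merging fills gaps, which are more numerous in the treated lists. For the other changes the cause was not tested.

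Of the 40 folds of single genes (10 genes, 2 windows, 2 drugs) 25 lay on the other side of 1 under at least 1 alternative. Gaps of up to 1000 bp turned 15 of 40, gaps of up to 300 bp 7 of 40, and the score filter 7 of the 32 it could be computed for. A 10 kb start window turned 6 of 20 and a 2 kb one 5 of 20, no flank 3 of 20, a 25 kb flank 1 of 20, the width filter 1 of 40 and the first list alone 2 of 40. Bases in either list turned 5 and bases in both lists 3 of 40. Among folds past 1.5 the turns were these. The score filter turned the SNAI2 region to 0.174 with vorinostat and 0.554 with romidepsin, and the ZEB2 start with vorinostat to 0.316. Merging across gaps of up to 1000 bp turned the CDH1 start with vorinostat to 1.19 and the GRHL2 start with romidepsin to 1.08, which a 2 kb window turned to 1.13. No paired analysis was possible because each condition has 1 sample and no result comes from a test.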
